A study of Homo sapiens with 2 samples.

Results

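The collagens other than type IV are the chains that build fibrils, coat them, form open networks or span the cell membrane. They were taken as the genes whose symbol has the form of a collagen chain, leaving out the chains of type IV. Of 18417 genes with a value on the arrays, 37 met this rule. The arrays came from HT1080, a human fibrosarcoma line grown in medium with serum, after 24 h on a coating of BSA (1 array) or rLCC111 (1 array). BSA is serum albumin and served as the control coating. rLCC111 is a recombinant fragment of mouse laminin-111 that holds the coiled-coil part of its alpha, beta and gamma chains and was secreted by a human cell line. There was 1 array for each coating, so no difference has a replicate check and no test was possible. All comparisons below describe these 2 arrays, made from the bulk RNA of 1 cell line, in which a change in the share of cells and a change in RNA per cell cannot be told apart.

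A collagen molecule is made of chains wound into a triple helix, in which glycine recurs at a fixed interval. In tissues the fibrillar types I, II, III, V and XI give tensile strength. The FACIT collagens, which have interrupted helices, attach to the fibril surface. Types VIII and X form hexagonal networks, and the transmembrane collagens sit in the plasma membrane as receptors or adhesion molecules. Several collagens belong to none of these classes, among them type VI, which forms beaded filaments, and type VII, which forms the anchoring fibrils of skin. HT1080 cells are known to make the basement membrane collagen of type IV. Whether a coating made of a laminin fragment goes with a change in the chains of the other collagens is the question that the comparison addresses.

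No collagen other than type IV reached a 2-fold difference between the coatings. Values are given as log2 levels on each array, and differences are taken as rLCC111 minus BSA on that scale. None of the 37 genes was at least 2-fold higher on rLCC111, where 0.239% of all genes were, and none was at least 2-fold lower, where 0.0869% of all genes were. At a threshold of 1.2-fold, 4 genes were higher on rLCC111, COL10A1, COL1A1, COL8A1 and COL6A3, against 6.76% of all genes, and none was lower, against 5.89% of all genes. The other 33 lay within 1.2-fold. Of the 37 differences as deposited, 26 were above 0, 5 were below 0 and 6 were exactly 0. Above 0 were thus 70.3% of the 37, where 46.2% of all genes were. The 37 differences ran from -0.16 for COL26A1 to 0.44 for COL10A1, with a median of 0.06 beside 0.00 over all genes. Centring each array on its median takes 0.0794 from every difference alike, so it moves signs and threshold counts but not the distance between genes. The collagen median was then -0.02 beside -0.08 over all genes, 0.059 apart as before. The distance was 0.0429 after quantile normalization and 0.0616 after removal of a lowess trend. Of the 37, 14 were above 0 and 23 below after median centring, 16 and 21 after quantile normalization, and 25 and 12 after lowess. The median of all genes was then itself below 0, at -0.0794, -0.0578 and -0.0196 in the same order. Most genes were thus below 0 under these scalings, and their exact share was not counted.

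Some of these chains were at the levels of genes that a fibrosarcoma cell is not known to use. Olfactory, taste and vomeronasal receptor genes, 394 in all, served as silent genes, and the 95th percentile of their mean levels, 6.61, was taken as the limit of a silent gene. Of the 37 collagen genes, 24 were above this limit on both arrays and 13 were at or below it on both, so none crossed it. Among the 24, COL1A1 and COL6A3 passed 1.2-fold on the higher side, and none did on the lower side. Of the 12730 genes whose brighter array was above the limit, 8.00% were past 1.2-fold higher and 7.18% past 1.2-fold lower. The differences of the silent genes had an SD of 0.18, and the middle 95% of them lay between -0.22 and 0.56. All 37 collagen differences lay inside this span. Of the silent genes 372 were not above the limit, so the span does not measure the spread at the levels of the 24 brighter collagens. The median difference was 0.05 among the 24 genes above the limit and 0.06 among the 13 others.

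**Figure D1:**
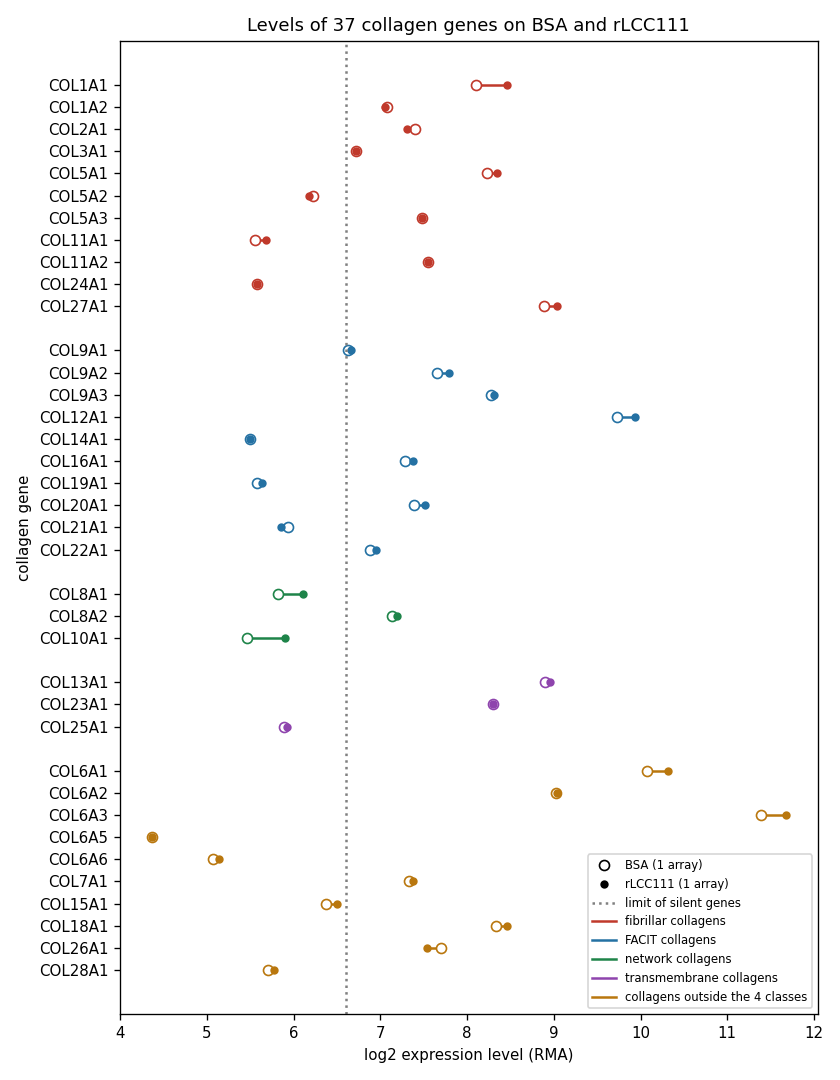
Log2 level (horizontal) of each of 37 collagen genes (vertical, grouped by class) on BSA (open circle) and on rLCC111 (filled circle), 1 array each; the dotted line is the limit of silent genes, 6.61. The circles of most genes touch or overlap, and those of COL10A1 and COL1A1 stand farthest apart.

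The promoters of a pair of type VI chains are shown because these chains assemble together and had unequal differences between the coatings. COL6A3 is the gene above the limit and past 1.2-fold for which a RefSeq window was searched, and COL6A2 was nearly equal on both arrays. Each sequence below is the 250 bases before the gene start, read 5′ to 3′ on the strand of the gene in build GRCh38.p14. COL6A3 lies on the minus strand at chr2:237414165-237414414 and COL6A2 on the plus strand at chr21:46097862-46098111. Capitals mark 4 motifs. The TATA box was searched as TATAAA and the GC box as GGGCGG, with CCGCCC as its form on the opposite strand. The box named for its letters CCAAT reads ATTGG on the opposite strand. The element bound by SMAD proteins was searched as CAGAC and on the opposite strand as GTCTG.
COL6A3: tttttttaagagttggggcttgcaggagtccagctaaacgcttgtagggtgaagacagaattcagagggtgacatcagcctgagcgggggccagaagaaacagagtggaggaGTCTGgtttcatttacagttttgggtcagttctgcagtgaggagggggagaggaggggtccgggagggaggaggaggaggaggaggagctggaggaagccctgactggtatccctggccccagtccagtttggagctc
COL6A2: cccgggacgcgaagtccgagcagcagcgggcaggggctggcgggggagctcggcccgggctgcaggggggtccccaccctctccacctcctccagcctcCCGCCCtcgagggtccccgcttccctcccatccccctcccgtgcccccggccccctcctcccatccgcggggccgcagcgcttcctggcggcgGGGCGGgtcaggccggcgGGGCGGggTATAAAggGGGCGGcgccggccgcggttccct

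The COL6A3 window holds 1 SMAD element and no GC box, TATA box or CCAAT box, and 56.0% of its bases are G or C. The COL6A2 window holds 4 GC boxes and 1 TATA box with neither of the other motifs, and 79.6% of its bases are G or C. In all, 25 of the 37 genes had windows that were searched, 36 windows in number since some genes have several starts. A GC box was present in 55.6% of them, against 42.6% of all 35116 windows searched. A TATA box was present in 13.9% against 6.80%, a CCAAT box in 19.4% against 32.0% and a SMAD element in 33.3% against 38.0%, with both strands searched except for the TATA box. The 12 genes without a window that was searched include COL1A1, COL1A2, COL6A1 and COL8A1. Windows of 1 gene can overlap, and a match describes these letters only.

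Among 11 fibrillar collagens, COL1A1, the main chain of the type I collagen of bone, skin and tendon, had the largest difference. It was at 8.10 on BSA and 8.46 on rLCC111, or 1.28-fold. Of the genes above the limit of silent genes, 4.51% had a difference at least as high. COL1A2, the other chain of type I collagen, was at 7.07 and 7.05, a fold of 0.985. The chains of type I thus stood apart by 0.38 in their log2 differences.

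Type V collagen starts the assembly of type I fibrils and sets their diameter. COL5A1 was at 8.23 on BSA and 8.34 on rLCC111, or 1.09-fold. COL5A3 was at 7.48 on both arrays. COL5A2 was below the limit of silent genes, at 6.22 and 6.18. The gene of type III collagen, COL3A1, which accompanies type I in vessels and skin, was at 6.72 on both arrays, just above that limit. None of these genes was past 1.2-fold.

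COL27A1, a fibrillar collagen of developing cartilage, was at 8.88 and 9.04, a fold of 1.11. The cartilage genes COL2A1 and COL11A2 were near 0 in difference, COL2A1 at 7.39 and 7.31 and COL11A2 at 7.54 and 7.55. COL11A2 has 3 sequences on the array, and the other ones were at 6.38 on both arrays, below the limit of silent genes. COL11A1 and COL24A1 were also below it, between 5.56 and 5.68. As deposited, the median difference of the fibrillar class was 0.00, with 5 genes above 0, 3 below 0 and 3 at exactly 0.

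Type VI collagen forms a filament network close to the cell surface, and its main chains are encoded by COL6A1, COL6A2 and COL6A3. COL6A3, the largest chain, was at 11.39 on BSA and 11.68 on rLCC111, or 1.23-fold. COL6A1 was at 10.07 and 10.32, a fold of 1.19, just under the threshold. COL6A2 was at 9.02 and 9.04, a fold of 1.02. As deposited all 3 chains were above their BSA level, COL6A2 by less than the 0.0794 that median centring takes from every gene. Of the genes above the limit of silent genes, 6.76% had a difference at least as high as that of COL6A3 and 8.96% as that of COL6A1. COL6A5 and COL6A6, which encode chains that can stand in for COL6A3, were below the limit on both arrays, at 4.36 and 4.36, and at 5.07 and 5.14.

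Among 10 FACIT collagens none was past 1.2-fold. COL12A1, which links type I fibrils to the surrounding matrix, had the largest difference, with 9.73 on BSA and 9.94 on rLCC111, or 1.16-fold. The chains of type IX collagen, which decorates cartilage fibrils, differed little. COL9A2 was at 7.65 and 7.80, COL9A3 at 8.28 and 8.31, and COL9A1 at 6.63 and 6.66, just above the limit of silent genes. COL20A1 had a fold of 1.09, COL16A1 1.06 and COL22A1, a collagen of muscle-tendon junctions, 1.05. COL14A1, COL19A1 and COL21A1 were below the limit. COL21A1, at 5.94 and 5.86, was the FACIT gene whose difference was below 0 as deposited. The median difference of this class was 0.07, and -0.01 after median centring.

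The network collagens gave the largest difference of all, at the levels of silent genes. COL10A1, the collagen of hypertrophic cartilage, was at 5.46 on BSA and 5.90 on rLCC111, or 1.36-fold. COL8A1, a chain of the type VIII collagen of vessel walls and the cornea, was at 5.82 and 6.11, a fold of 1.23. Both genes stayed below 6.61 on both arrays. COL8A2, the other chain of type VIII, was above the limit, at 7.13 and 7.19, a fold of 1.04. The median of these 3 genes was 0.29, and the 1 gene above the limit had a difference of 0.06. Among the silent genes themselves, 26 of 394 were past 1.2-fold higher and 6 past 1.2-fold lower.

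The transmembrane collagens differed by at most 0.05 between the coatings. COL13A1, which helps to form the neuromuscular junction, was at 8.90 on BSA and 8.95 on rLCC111. COL23A1 was at 8.30 on both arrays. COL25A1, which was first found in amyloid plaques, was below the limit of silent genes, at 5.88 and 5.93. COL17A1 was not analysed here.

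The remaining collagens lie at or near basement membranes or have no settled class. COL18A1, the precursor of endostatin, was at 8.34 on BSA and 8.46 on rLCC111, or 1.09-fold. COL7A1 was at 7.33 and 7.37, a fold of 1.03. COL26A1, a small collagen of the gonads, was at 7.70 and 7.54, a fold of 0.893, which was the lowest of the 37. COL15A1, a relative of COL18A1, was at 6.37 and 6.50, and COL28A1 at 5.70 and 5.78, both below the limit of silent genes.

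Among chains of the same collagen type that were above the limit of silent genes, the differences were 0.38 apart for type I, 0.31 for type IV, 0.27 for type VI, and 0.12 for types V and IX. Types VIII and XI have 1 chain each above the limit. COL4A1 and COL4A2, the ubiquitous chains of the basement membrane network, had folds of 1.95 and 1.57 and were the type IV genes above the limit of silent genes. The COL4A1 and COL4A2 differences, 0.96 and 0.66, were both larger than that of any of the 37 other collagens on these arrays. This was not tested. The other type IV genes were at or below 6.32 on both arrays.

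**Figure D2:**
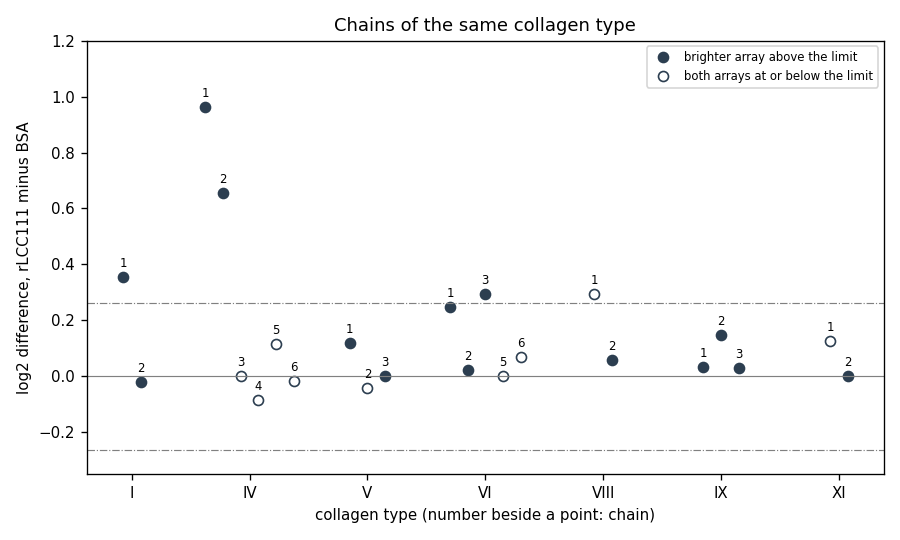
Log2 difference, rLCC111 minus BSA (vertical), of each chain of the 7 collagen types with more than 1 chain (horizontal), 1 array per coating; the number beside a point is the chain, open circles are genes with both arrays at or below the limit of silent genes, and dash-dotted lines mark 1.2-fold. The COL4A1 and COL4A2 points, at 0.96 and 0.66, lie above all others, and COL1A1 lies 0.38 above COL1A2.

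Some differences were exactly 0. For COL3A1, COL5A3, COL23A1, COL6A5, COL14A1 and COL24A1 the deposited values of both arrays were identical to the last digit. That is 16.2% of the 37 genes, where 7.19% of all genes had identical values. Identical values made up 16.6% of all genes not above the limit of silent genes and 3.01% of those above it. They were found in 3 of the 24 collagen genes above it and in 3 of the 13 others. Without identical values, the median difference was 0.07 over 31 collagen genes and -0.00088 over 17092 genes.

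Across the 37 genes the difference and the mean level had a Pearson r of 0.28 and a Spearman rho of 0.25, as a description of genes that share the same arrays. The median size of a difference, whatever its sign, was 0.072 among the collagens and 0.0875 among all genes. In size, 23 of the 37 differences, or 62.2%, were under 0.1, as were 54.8% of those of all genes.

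**Figure D3:**
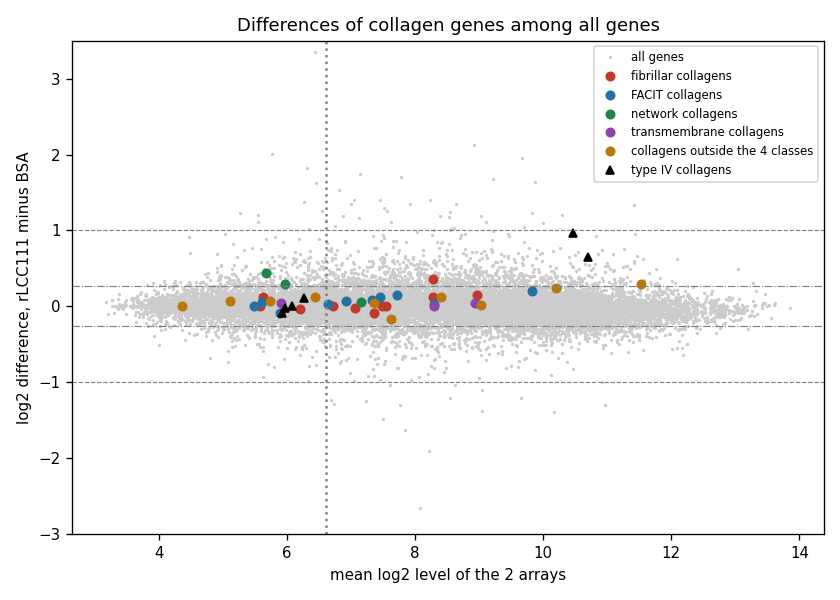
Log2 difference, rLCC111 minus BSA (vertical), against the mean log2 level of the 2 arrays (horizontal), for 18417 genes (grey), 37 collagen genes (coloured by class) and 6 type IV collagen genes (triangles). Dashed lines mark 2-fold, dash-dotted lines 1.2-fold and the dotted line the limit of silent genes; the coloured points stay between -0.16 and 0.44, inside the cloud of all genes.

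Collagen-related genes were taken as 8 lists, among them a list of 26 other proteins with a collagen-like helix that need not act on collagen. The 8 lists held 151 genes with a value. Of these, 24, or 15.9%, were past 1.2-fold on the higher side and 7, or 4.64%, on the lower side, against 6.76% and 5.89% of all genes. After median centring these became 14 and 16 genes, or 9.27% and 10.6%, against 3.99% and 11.7% of all genes. Prolyl 4-hydroxylase makes the hydroxyproline that holds the helix together. P4HA2, one of its catalytic subunits, was at 9.23 on BSA and 9.86 on rLCC111, or 1.54-fold, and P4HA1 and P4HA3, the others, had folds of 1.30 and 1.25. P3H4, a partner of lysyl hydroxylase, had a fold of 1.21, and SERPINH1, the collagen chaperone HSP47, 1.15. Among the 18 genes of hydroxylation and folding, 4 were past 1.2-fold higher and none lower as deposited. After median centring FKBP14, at a fold of 0.861 as deposited, was past 1.2-fold lower, and P4HA3 and P3H4 were within 1.2-fold. The median of this list was 0.08, and -0.0016 after median centring.

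Among 16 genes of propeptide cleavage and crosslinking, 5 were at least 1.2-fold higher and 1 lower as deposited, against 6.76% and 5.89% of all genes. After median centring ADAMTS3, PCOLCE and FURIN, the last at 1.22-fold as deposited, were within 1.2-fold. ADAMTS14 and ADAMTS3, which remove N-propeptides, had folds of 1.59 and 1.26. BMP1, which removes C-propeptides, had a fold of 1.27, and PCOLCE, its enhancer, 1.23. LOX, a crosslinking oxidase, was the lower gene, at 10.88 on BSA and 10.59 on rLCC111, or 0.820-fold, and LOXL2 had a fold of 1.03. Among 12 genes of procollagen export, CREB3L1, a membrane-bound transcription factor that is known to drive COL1A1 in bone, was at 7.75 and 8.24, a fold of 1.41. No other gene of that list was past 1.2-fold, and MIA3, the cargo receptor TANGO1, had a fold of 1.05.

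Of 14 collagen receptors, 3 were at least 1.2-fold higher and none lower as deposited, against 6.76% and 5.89% of all genes. ANTXR2 had the lowest fold of the list, 0.842. After median centring ANTXR2 and DDR2 were past 1.2-fold lower, and the 3 higher genes stayed past 1.2-fold. MRC2, which takes up collagen fragments, was at 9.53 on BSA and 10.27 on rLCC111, or 1.67-fold. DDR1, a receptor tyrosine kinase that binds collagen, had a fold of 1.56, while DDR2, which prefers fibrillar collagens, had 0.865. ITGA10, an integrin chain for collagens of cartilage, had a fold of 1.40, and ITGA2, the chain of the main type I collagen integrin, 1.16.

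Of 16 genes of collagen degradation, 4 were at least 1.2-fold higher, 2 of them at least 2-fold, and none was lower. These 2 were the gelatinase gene MMP2, with a fold of 2.52, and the collagenase gene MMP13, at 5.92 on BSA and 7.18 on rLCC111. CTSK, a lysosomal collagenase, was at 6.26 and 6.63. On BSA both MMP13 and CTSK were under the limit of silent genes, so their folds of 2.39 and 1.30 are taken against a level that was not above it. The median of this list was 0.19 over all 16 genes, 0.11 after median centring and 0.17 over the genes with both arrays above the limit. MMP1 and MMP14, which cut fibrillar collagen, had folds of 0.864 and 1.09. After median centring MMP1 was past 1.2-fold lower, and MMP15, at 1.22-fold as deposited, was within 1.2-fold.

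Of 18 fibril-binding proteoglycans and partners, 3 were at least 1.2-fold higher and 1 lower as deposited, against 6.76% and 5.89% of all genes. Their median was -0.04, but it was 0.19 over the 8 genes above the limit of silent genes. BGN, which encodes biglycan, was at 9.16 and 9.63, a fold of 1.38, FN1, which encodes fibronectin, had 1.40, and ABI3BP, the lower gene, 0.716. DCN, LUM, FMOD and OGN, small proteoglycans of mature fibrils, were below the limit of silent genes on both arrays. Of 31 transcription regulators of collagen genes, 3 were at least 1.2-fold higher and 4 lower as deposited, with a median of -0.02. The shares of all genes are those just given. After median centring none of the 31 was past 1.2-fold higher, and MYB, JUN and SOX9 were past 1.2-fold lower as well. FLI1 and CEBPB had folds of 0.747 and 0.748, ETS1 had 0.803, and TWIST1 and SMAD7 had 1.25 and 1.24. The remaining list held 26 other proteins with a collagen-like helix. In it C1QTNF6 had a fold of 1.54, CCBE1 had 0.432, and the other 24 genes lay within 1.2-fold as deposited.

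**Figure D4:**
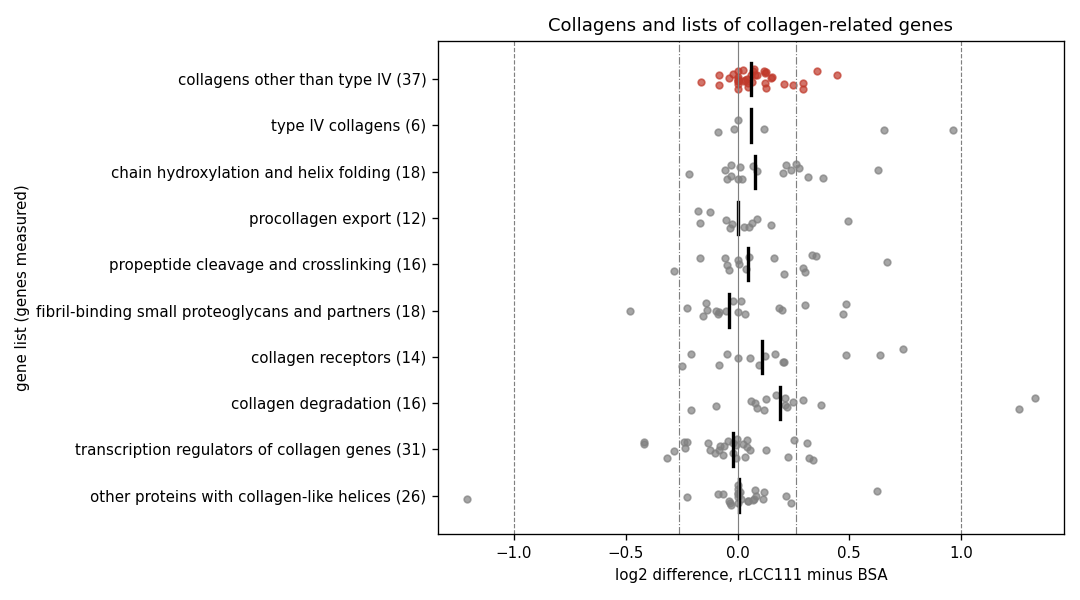
Log2 difference, rLCC111 minus BSA (horizontal), of each gene (points, spread vertically for legibility) of the 37 collagens (red) and of 9 other lists (grey), 1 array per coating; black bars are list medians, dash-dotted lines mark 1.2-fold and dashed lines 2-fold. The collagen points span -0.16 to 0.44, while MMP2 and MMP13 lie past the upper dashed line and CCBE1 past the lower one.

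No scaling tried moved a collagen difference by more than 0.0924, so the signs of the largest differences could not turn. COL10A1 and COL8A1 were below the limit of silent genes on both arrays. COL10A1 ranged from 0.36 to 0.44 and COL1A1 from 0.28 to 0.36 as deposited, after median centring, after quantile normalization and after removal of a lowess trend. Both were past 1.2-fold under each of these. COL6A3 ranged from 0.21 to 0.34, COL8A1 from 0.21 to 0.29, COL6A1 from 0.17 to 0.28 and COL12A1 from 0.13 to 0.23. COL6A1 was past 1.2-fold after quantile normalization and after lowess, and COL6A3 and COL8A1 were within 1.2-fold after median centring. COL26A1 ranged from -0.25 to -0.16 and was never past the threshold. The sign of a difference smaller than the common shift can turn with the scaling. Counts of differences above and below 0 include such genes and hold only for the scaling they were taken under.

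**Figure D5:**
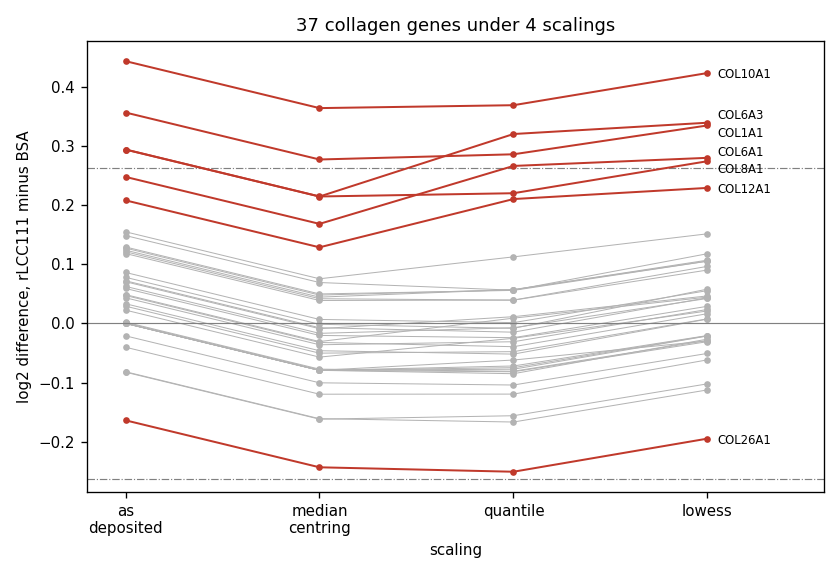
Log2 difference, rLCC111 minus BSA (vertical), of each of 37 collagen genes (lines) under 4 scalings (horizontal), 1 array per coating; dash-dotted lines mark 1.2-fold and 7 genes are drawn in red with their names. COL10A1 and COL1A1 stay above the upper dash-dotted line throughout, and median centring moves every line down by 0.0794.

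The array medians differed, at 7.04 on BSA and 7.12 on rLCC111, over 33297 sequences. Of 14 mesenchymal markers 8 were above the limit of silent genes, and 3 of these were past 1.2-fold higher, PDGFRB with a fold of 2.54, FN1 with 1.40 and TWIST1 with 1.25. VIM was at 13.05 on BSA and 12.98 on rLCC111, while THY1, S100A4, NT5E, PDGFRA, PRRX1 and FAP were not above the limit of silent genes on either array. Markers of other cell types were above it for 5 of 9 epithelial genes, KRT8 and KRT18 among them but not EPCAM or CDH1. So were 3 of 8 endothelial genes by the brighter array, among them TIE1, at 10.55 on BSA and 10.39 on rLCC111. Of 7 blood cell genes 3 were above it, among them LCP1, at 12.37 and 12.27, but not PTPRC. The endothelial genes ESAM and VWF had folds of 0.712 and 0.777. VWF was below the limit on both arrays, and ESAM, at 7.09 on BSA, was just below it on rLCC111, at 6.60. Of 8 chondrocyte and bone genes 3 were above it, and none was past 1.2-fold. The 3 were SOX9, a driver of cartilage collagen genes, at 10.32 and 10.09, SP7, and COL2A1, which is itself among the collagens described here. The summed linear level of the mesenchymal list was 34990 on BSA and 38301 on rLCC111, and that of the epithelial list 6297 and 5938. The sum was 2365 and 2130 for the endothelial list and 5687 and 5361 for the blood list. Such sums are weighted to bright genes, such as TIE1, LCP1 and FN1, the last at 12.80 on BSA and 13.29 on rLCC111. In the mesenchymal list 8 differences were above 0 and 5 below 0. Its genes FN1, SERPINH1, TWIST1, PRRX1 and FAP are also in the lists of collagen-related genes. So are SOX9, SP7 and MATN1 of the chondrocyte and bone list. The part of the marker lists in the collagen differences was not tested.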

How the data were processed

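RNA of HT1080 cells on BSA or rLCC111 was measured on 1 Affymetrix Human Gene 1.0 ST array per coating. The authors converted the scans with RMA in Affymetrix Expression Console and deposited log2 expression levels, which were used without further scaling. For the settings and version, nothing is given in the sources used here. Limma is named in the methods, but 1 array per group leaves nothing from which to estimate a spread, so that step was not run.

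Sequences were named from the platform annotation through gene identifiers of the RefSeq table (GRCh38.p14). Of 33297 sequences, 19460 have 1 symbol, 1754 several and 12083 none here. Where several sequences carried 1 symbol, the brightest on average stood for the gene. A gene counted as different past 1.2-fold, or past 2-fold as in the study. Levels of different genes were compared for the limit of silent genes, the Spearman rho and the summed marker levels. Promoters came from RefSeq windows, of which the 250 bases before the start were searched. Chromosome 8 was left out of the collagen windows, a filter not applied to the windows of all genes. Protein sequences were not used here.

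The members and lists were chosen with earlier results of these data known. Named genes are collagens above the limit and past 1.2-fold, the extremes of each class and partner chains, and list genes past 2-fold or among the 4 largest past 1.2-fold above the limit. Other genes were named after their values were seen. The alternatives were median centring, quantile normalization, lowess (span 0.2, 3 iterations), the mean of a gene's sequences, filters on dim genes and other limits. The counting was tested on simulated data. Python 3.11.15, numpy 2.4.6, pandas 2.3.3, statsmodels 0.14.6 and matplotlib 3.10.9 were used.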

Additional observations from a re-analysis of the deposited data

How the results depend on the processing

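No collagen other than type IV passed 2-fold, and none was at least 1.2-fold lower, under any alternative tried. The count at least 1.2-fold higher, 4 as deposited, was 2 after median centring (COL10A1 and COL1A1). It was also 2 with the brighter array above the limit and 2 with both arrays above it (COL1A1 and COL6A3), since these filters remove COL10A1 and COL8A1. It was 4 after quantile normalization and 5 after lowess. The collagen median moved from 0.06 to -0.02 after median centring, -0.015 after quantile normalization and 0.042 after lowess. Its distance from the median of all genes was 0.059, 0.059, 0.0429 and 0.0616 in the same order. Over all genes, 6.76% were at least 1.2-fold higher and 5.89% lower as deposited, and 6.48% and 5.92% after lowess. These shares were 3.99% and 11.7% after median centring, and 4.97% and 8.55% after quantile normalization. In the lists of collagen-related genes, 24 were higher and 7 lower as deposited, or 15.9% and 4.64%. These became 14 and 16 after median centring, or 9.27% and 10.6%. They were 20 and 11 after quantile normalization, or 13.2% and 7.28%, and 25 and 7 after lowess, or 16.6% and 4.64%. With the limit of silent genes at the 99th percentile, 7.55, there were 13 collagens above it by the brighter array and 12 by both, against 24. The number of arrays limits precision. No paired analysis was possible because each coating has 1 array, and none could be left out.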

Other observations

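Some of the 37 collagen genes are next to each other among protein-coding genes of the RefSeq table. COL6A1 and COL6A2 are such neighbours and had differences of 0.25 and 0.02. COL3A1 and COL5A2 had differences of 0.00 and -0.04, COL6A5 and COL6A6 0.00 and 0.07, and COL19A1 and COL9A1 0.06 and 0.03. None of these pairs was examined beyond these values.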
